A study of Homo sapiens with 6 samples.

Results

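Transcripts of 4 antioxidant enzymes under the control of the transcription factor NRF2 were lower in H358 cells carrying TwistER than in H358 cells carrying GFP, while the transcripts of NRF2 itself and of its inhibitor KEAP1 did not pass the test. The genes that fell were malic enzyme ME1 (3.17-fold), GCLC, the catalytic subunit for the first step of glutathione synthesis (2.08-fold), the thioredoxin reductase TXNRD1 (1.78-fold) and the quinone reductase NQO1 (1.52-fold). The 9 genes described are NFE2L2, which encodes NRF2, KEAP1, and 7 enzyme genes that are known NRF2 targets (ME1, GCLC, GCLM, TXNRD1, NQO1, HMOX1 and SRXN1). Of these 7, GCLM, HMOX1 and SRXN1 did not pass the test either, and over all genes tested 4.11% fell. The 9 genes were chosen by name, as array probe sets annotated with exactly 1 of these symbols, and are 9 of the 18417 genes tested. Each of the 9 had a single such probe set. The genes were picked with earlier results of the same arrays known.

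H358 is a long-established line of human non-small cell lung cancer. The groups were H358 cells stably expressing TwistER (3 arrays) and H358 cells stably expressing GFP (3 arrays), and both groups received 100 nM 4-hydroxytamoxifen for 12 days before total RNA was taken. TwistER names a fusion of the Twist transcription factor with a tamoxifen-responsive part of the estrogen receptor. The submitters' titles call the TwistER arrays after EMT and the GFP arrays before EMT (epithelial-mesenchymal transition), but both are drug-treated lines and no TwistER cells without the drug were among the arrays, so activation of TwistER and other differences between the lines cannot be told apart. Whether a line is 1 clone is not given in the sources used here.

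NRF2 is held low in unstressed cells because KEAP1 binds it and presents it to the CUL3 ubiquitin ligase. Oxidants and electrophiles modify cysteines of KEAP1, and NRF2 then accumulates, pairs with small MAF proteins and binds antioxidant response elements in DNA. Its targets make glutathione, keep thioredoxin reduced, supply NADPH and detoxify quinones and haem. In lung cancers the pathway is often switched on by mutations of KEAP1 or NFE2L2. Control of NRF2 acts largely on the protein, which arrays do not measure.

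The short form of the antioxidant response element, TGACNNNGC, was searched on both strands of the 250 bases before each annotated transcription start. The windows of the 4 genes that fell are shown so that the matches can be read in place. RefSeq start sites (build GRCh38.p14) were given for 8 of the 9 genes, all but HMOX1, in 11 windows. The 5 windows of the genes that fell are printed 5' to 3' on the gene's strand, with each match in capitals. ME1 lies on chromosome 6, minus strand (window chr6:83431052-83431301), and GCLC on the same chromosome and strand (chr6:53545102-53545351). TXNRD1 has 2 annotated starts on chromosome 12, plus strand (chr12:104215529-104215778 and, inside the span of the gene, chr12:104286782-104287031). NQO1 lies on chromosome 16, minus strand (chr16:69726561-69726810).
ME1: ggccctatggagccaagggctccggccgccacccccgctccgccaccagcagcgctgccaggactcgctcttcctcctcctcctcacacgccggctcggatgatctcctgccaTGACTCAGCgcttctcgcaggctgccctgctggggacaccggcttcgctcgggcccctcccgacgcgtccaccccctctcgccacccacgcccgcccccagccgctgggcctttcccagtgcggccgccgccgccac
TXNRD1 first start: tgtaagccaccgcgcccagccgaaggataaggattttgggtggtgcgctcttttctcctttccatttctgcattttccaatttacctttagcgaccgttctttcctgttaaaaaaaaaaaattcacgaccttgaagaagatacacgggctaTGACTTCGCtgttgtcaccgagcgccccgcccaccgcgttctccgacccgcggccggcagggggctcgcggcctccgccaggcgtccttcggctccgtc
TXNRD1 second start: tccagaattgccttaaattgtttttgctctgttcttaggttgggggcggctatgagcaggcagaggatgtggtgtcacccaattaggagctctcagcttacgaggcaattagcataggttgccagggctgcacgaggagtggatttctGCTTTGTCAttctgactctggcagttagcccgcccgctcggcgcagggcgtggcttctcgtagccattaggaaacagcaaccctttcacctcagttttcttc
GCLC: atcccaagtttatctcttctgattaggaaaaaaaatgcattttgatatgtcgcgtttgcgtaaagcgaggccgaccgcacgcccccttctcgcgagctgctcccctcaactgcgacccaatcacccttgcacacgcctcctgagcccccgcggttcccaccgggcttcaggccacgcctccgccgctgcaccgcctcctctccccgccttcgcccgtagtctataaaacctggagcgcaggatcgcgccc
NQO1: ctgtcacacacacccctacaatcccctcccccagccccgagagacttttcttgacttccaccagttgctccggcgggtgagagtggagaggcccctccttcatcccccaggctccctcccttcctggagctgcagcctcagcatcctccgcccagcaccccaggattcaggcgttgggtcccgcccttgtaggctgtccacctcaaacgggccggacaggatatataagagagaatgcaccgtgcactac

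Among the genes that fell, the ME1 window held 1 match, whose first base lay 137 bases before the start. Each TXNRD1 window held 1 match, at 99 and 102 bases before the start, the second on the opposite strand. No match was found in the GCLC and NQO1 windows, which says only that these letters are not in these 250 bases. The motif also occurred before 2 genes that did not pass the test, and those stretches are shown to set beside the windows above. GCLM (chromosome 1, minus strand, chr1:93909445-93909474) and the second annotated start of KEAP1 (chromosome 19, minus strand, chr19:10502783-10502812) carried the same 9 letters on the opposite strand, 34 and 31 bases before the start. The KEAP1 window held 1 more match, at 54 bases.
GCLM: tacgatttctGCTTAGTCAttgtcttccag
KEAP1: gcccggctctGCTTAGTCAtggtgacctgc

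The motif stood in 5 of the 11 windows, belonging to 4 of the 8 genes, against 10.9% of all 35116 windows in the table. The E-box CANNTG, the general sequence read by Twist and other helix-loop-helix factors, stood in 7 of the 11 windows, against 61.8% of all windows. A match is a description of the sequence and not a binding site. The genes were chosen as members of the NRF2 pathway, so the share with TGACNNNGC is not a test of the motif.

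Values below are log2 expression on the scale deposited by the authors, differences are TwistER minus GFP, and a gene is said to have risen or fallen where limma's adjusted p (Benjamini-Hochberg over the 18417 genes) was under 0.05. Of the 9 genes, 4 fell (44.4%), 0 rose and 5 did not pass, while 6 were lower and 0 higher at an unadjusted p under 0.05. Over all genes 4.11% fell and 4.72% rose. The mean levels of the 9 lay at the 53.4 (HMOX1) to 95.6 (NQO1) percentile of all genes. In the fit of the 9208 genes above the 50 percentile, 805 fell and 776 rose, and 4 of the 9 fell. The 9 were picked with earlier results of these arrays known, so their share is not a test of the pathway. The median difference of the 9 was -0.50, against 0.01 over all genes, and 8 of the 9 differences were negative. In 6 of the 9 genes every TwistER array lay below every GFP array, which held for 14.5% of all genes. The labels were checked on CDH1, the epithelial cadherin, which was 31.9-fold lower in TwistER (5.09 ± 0.19, against 10.09 ± 0.48 in GFP, SD, n = 3), on the epithelial adhesion gene EPCAM (9.73-fold lower) and on fibronectin, FN1 (4.34-fold higher). The mesenchymal filament gene VIM was 1.51-fold higher, but missed the threshold when any 1 array except GFP replicate 1 was dropped (highest limma adjusted p = 0.144).

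**Figure D1:**
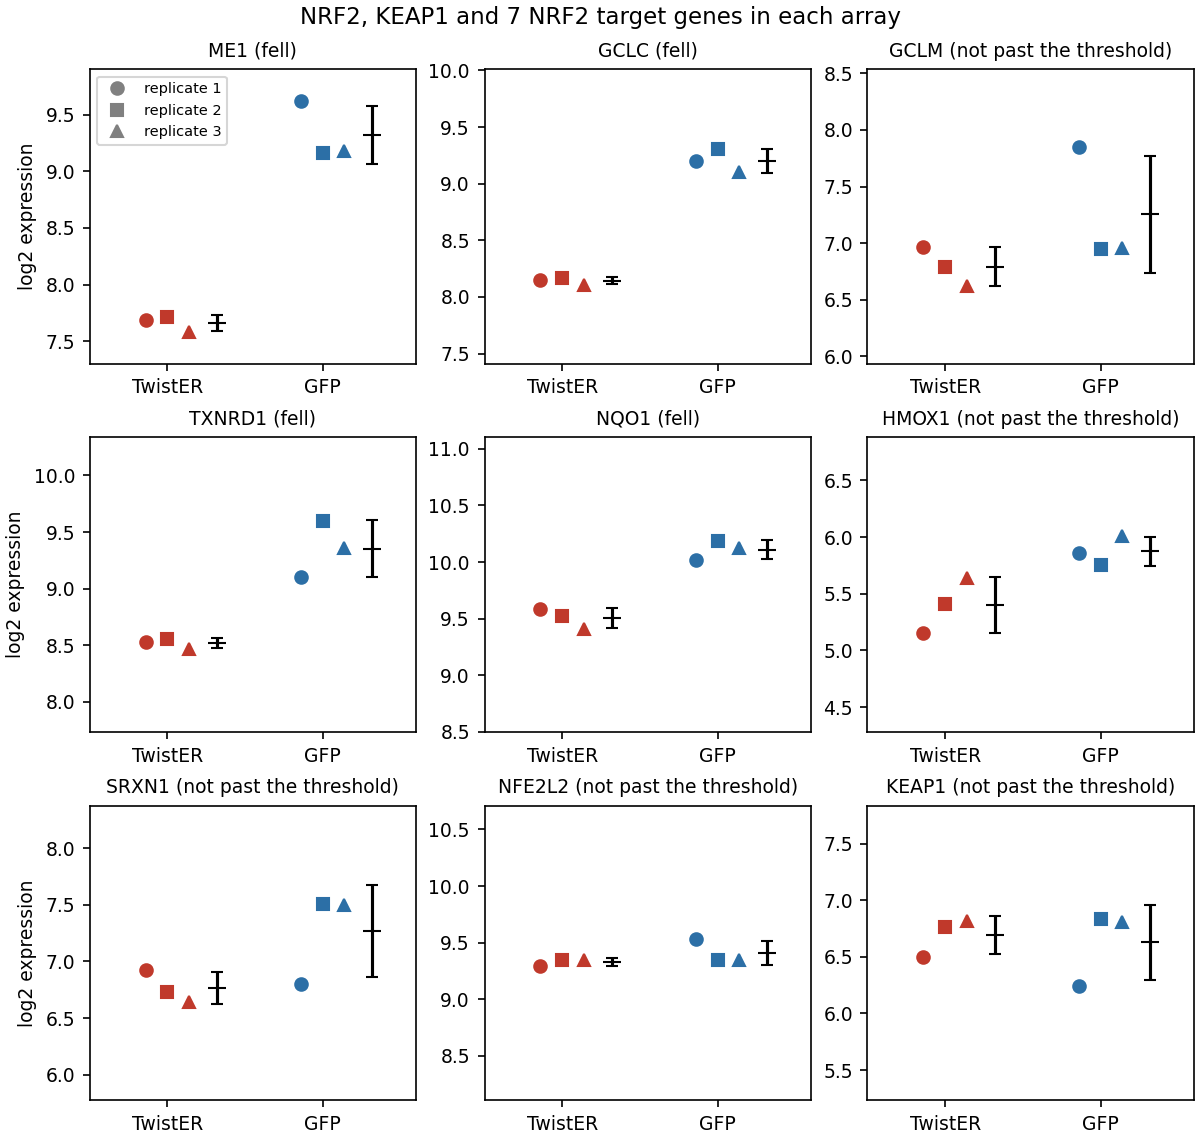
Log2 expression of the 9 genes (y axis, every panel spans the same range of log2 units) in the 3 TwistER and 3 GFP arrays (x axis). Symbols are single arrays, black bars are the mean and SD; in ME1, GCLC, TXNRD1 and NQO1 the TwistER arrays sit below the GFP arrays with a gap, while in GCLM, SRXN1 and KEAP1 GFP replicate 1 sits far from the other GFP arrays.

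GFP replicate 1 stood apart from the other arrays of its group. It took the opposite side of GFP replicates 2 and 3 on the second principal component (31.3, against -19.9 and -20.5), and limma's array weights gave it 0.194, against 0.871 to 1.93 for the other 5 arrays. The median absolute gap over all genes was 0.23 between GFP replicate 1 and the mean of the other GFP arrays, and 0.11 between GFP replicates 2 and 3. Results that rest on this array are therefore given with and without it. Without it, 5 of the 9 genes fell and 0 rose, where 8.09% of all genes fell and 6.97% rose.

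The regulators come first. NFE2L2 encodes the transcription factor itself. Its probe set read 9.29, 9.35 and 9.35 in the TwistER arrays and 9.53, 9.35 and 9.35 in the GFP arrays. GFP replicates 2 and 3 were level with the TwistER arrays, and GFP replicate 1 was higher. The groups did not overlap, but by a gap of only 0.0008, and the difference of -0.08 ± 0.11 (SE) did not pass (limma adjusted p = 0.744). Its 95% interval of -0.32 to 0.16 spans changes between 1.25-fold lower and 1.12-fold higher.

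KEAP1, the adaptor that delivers NRF2 for degradation, read 6.50, 6.76 and 6.82 in TwistER and 6.24, 6.83 and 6.81 in GFP. The groups overlapped, with the lowest value in GFP replicate 1. The difference of 0.07 ± 0.18 did not pass (limma adjusted p = 0.885, 95% interval -0.34 to 0.47, or 1.27-fold lower to 1.39-fold higher). Its sign turned when GFP replicate 1 was left out, to -0.13 (adjusted p = 0.560).

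Glutathione is made in 2 steps, and the enzyme of the first joins a catalytic subunit, GCLC, to a modifier subunit, GCLM, that raises its activity. GCLC read 8.15, 8.17 and 8.11 in the TwistER arrays and 9.20, 9.31 and 9.10 in the GFP arrays. Every TwistER array was lower than every GFP array, by at least 0.93. GCLC fell by 1.06 on the log2 scale (± 0.11 SE, limma adjusted p = 0.000526), and the 95% interval runs from 1.76-fold to 2.46-fold lower.

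The modifier subunit gave no such call. GCLM read 6.97, 6.79 and 6.62 in TwistER and 7.85, 6.95 and 6.96 in GFP. The groups overlapped, and GFP replicate 1 alone was well above the rest. The difference of -0.46 ± 0.24 did not pass (limma adjusted p = 0.322, 95% interval -1.0 to 0.08), and it shrank to -0.16 without GFP replicate 1 (adjusted p = 0.456). Only 3.59% of all genes had a larger gap between GFP replicate 1 and the other GFP arrays than GCLM. Whether the changes of GCLC and GCLM differ was not tested.

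The thioredoxin arm uses NADPH to keep protein thiols reduced. TXNRD1, the cytosolic selenoprotein that reduces thioredoxin, read 8.53, 8.56 and 8.47 in TwistER and 9.10, 9.60 and 9.36 in GFP. All TwistER arrays were lower, and the GFP arrays were the more spread. TXNRD1 fell by 0.84 on the log2 scale (± 0.14 SE, limma adjusted p = 0.00724), or by 0.96 without GFP replicate 1.

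SRXN1 encodes sulfiredoxin, which repairs over-oxidised peroxiredoxins. It read 6.92, 6.73 and 6.64 in TwistER and 6.80, 7.51 and 7.50 in GFP. GFP replicate 1 lay within the TwistER range and the other GFP arrays lay above it. With all arrays the difference of -0.50 ± 0.20 did not pass (limma adjusted p = 0.180). Without GFP replicate 1 SRXN1 fell by 0.74, which is 1.67-fold (limma adjusted p = 0.00456), so that the call depends on this array.

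ME1, the cytosolic malic enzyme, turns malate into pyruvate and yields the NADPH that both arms consume. It read 7.69, 7.71 and 7.58 in TwistER and 9.62, 9.16 and 9.18 in GFP. The gap between the groups was 1.45, the widest of the 9 genes, and GFP replicate 1 was the highest array. ME1 fell by 1.67 on the log2 scale (± 0.14 SE, 95% interval 2.52-fold to 3.99-fold lower, limma adjusted p = 0.000239). Of the 18417 genes, 63 had a lower difference. Leaving out GFP replicate 1 gave a fall of 1.51 (limma adjusted p = 9.54e-05).

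Of the detoxifying enzymes, NQO1 reduces quinones by 2 electrons at once and is a widely used readout of NRF2 activity. It read 9.59, 9.52 and 9.41 in TwistER and 10.02, 10.19 and 10.12 in GFP. The groups were separate, with a gap of 0.43, and both were tight (SD 0.09 in each). NQO1 fell by 0.60 (± 0.11 SE, limma adjusted p = 0.0104). The call was just missed without TwistER replicate 2 (adjusted p = 0.0531) or TwistER replicate 3 (0.0527), where the difference was -0.61 and -0.56. It was only just made without GFP replicate 2 (-0.56, limma adjusted p = 0.05 after rounding).

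HMOX1, the inducible haem oxygenase, degrades haem to biliverdin, iron and carbon monoxide, and is repressed by BACH1 as well as induced by NRF2. It read 5.15, 5.41 and 5.64 in TwistER and 5.86, 5.75 and 6.01 in GFP. All TwistER arrays were lower, by a gap of 0.12. The difference of -0.48 ± 0.15 did not pass (limma adjusted p = 0.0875), with a 95% interval of -0.81 to -0.14 for this gene alone.

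**Figure D2:**
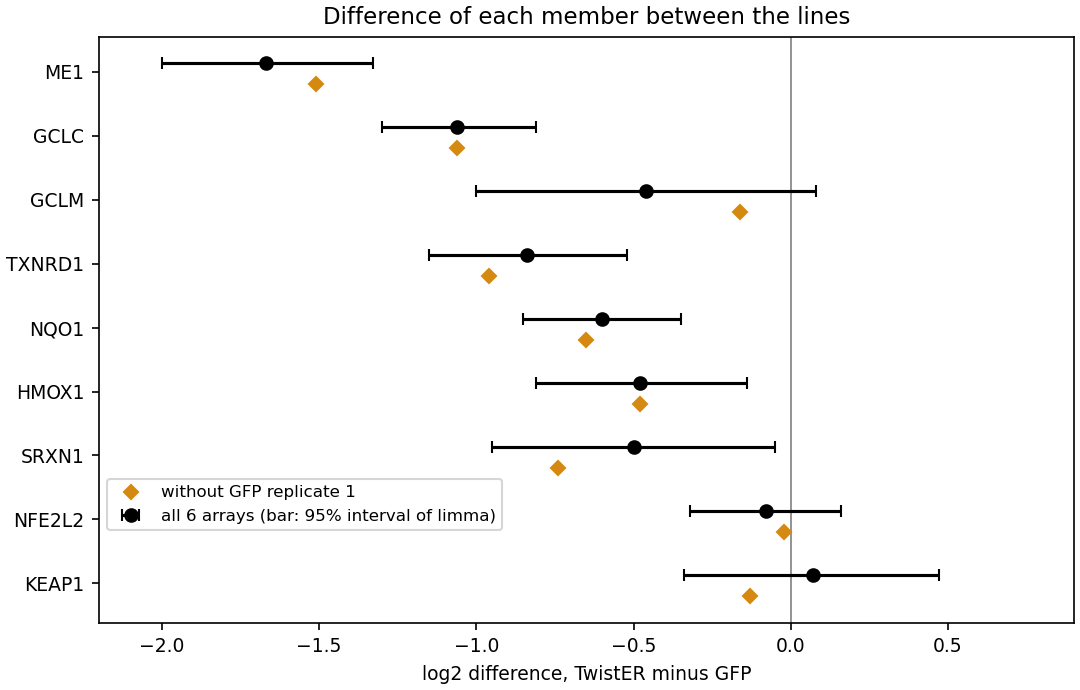
Log2 difference TwistER minus GFP (x axis) of the 9 genes (y axis). Black points are the limma estimates from all 6 arrays with 95% intervals and orange diamonds the estimates without GFP replicate 1; ME1 is lowest at -1.67, the interval of GCLM reaches 0.08, and SRXN1 moves from -0.50 to -0.74 without that array.

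The 9 genes differed in how GFP replicate 1 set them apart. It was above the mean of the other GFP arrays in GCLM (0.89), ME1 (0.45) and NFE2L2 (0.18), below it in SRXN1 (-0.71), KEAP1 (-0.58), TXNRD1 (-0.38) and NQO1 (-0.14), and within 0.02 of it in GCLC and HMOX1. GFP replicates 2 and 3 differed from each other by at most 0.25, in HMOX1.

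**Figure D3:**
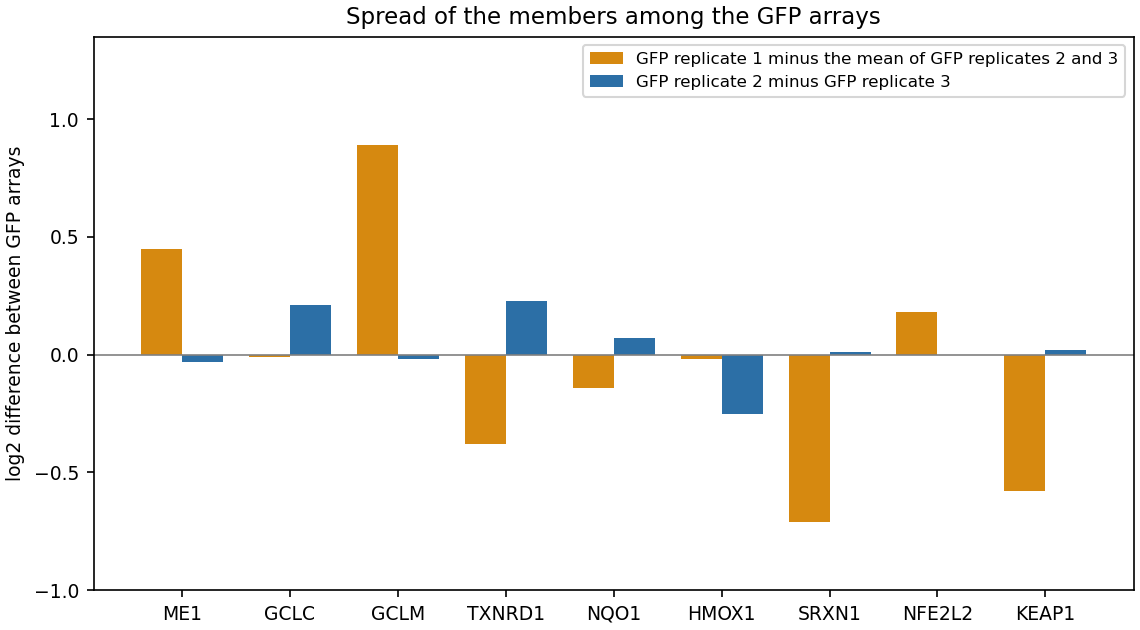
Log2 differences among the GFP arrays (y axis) for the 9 genes (x axis). Orange bars give GFP replicate 1 minus the mean of the other 2 GFP arrays and blue bars GFP replicate 2 minus replicate 3; the orange bars reach 0.89 in GCLM and -0.71 in SRXN1, and no blue bar passes 0.25 in size.

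Other genes of redox metabolism, in 10 lists written from general knowledge, moved in both directions. Of 153 measured genes in these lists 15 fell (9.80%), 13 rose (8.50%) and 125 did not pass, where 4.11% of all genes fell and 4.72% rose, and their median difference was -0.03. Without GFP replicate 1, 34 fell (22.2%) and 15 rose, where 8.09% of all genes fell and 6.97% rose, and without any 1 of the other arrays 5 to 7 fell. Related genes of a family, such as the glutathione S-transferases, can share array probes, and the sources used here do not say which do.

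Beside GCLC, the glutathione list (20 measured genes of synthesis, recycling and peroxidases) had 5 falls and 3 rises, with a median of -0.03. CHAC2, which breaks glutathione down, fell 2.0-fold (-1.0 ± 0.17 SE), and GGCT, a cyclotransferase of the same cycle, fell 1.79-fold (-0.84 ± 0.13). The secreted peroxidase GPX3 rose 2.92-fold (1.55 ± 0.13), and the glutaredoxin GLRX rose 1.78-fold (0.83 ± 0.14). The other calls, named after their values were seen, were falls of GSR, which regenerates reduced glutathione (-0.81), of the cystine importer SLC7A11 (-0.54) and of GLRX3 (-0.60), and a rise of the peroxidase GPX8 (0.75). GSR read 9.14, 9.18 and 9.27 in TwistER and 9.49, 10.30 and 10.21 in GFP, and its call (limma adjusted p = 0.0439) was missed without any 1 array other than GFP replicate 1 (highest 0.146), after a second quantile normalization (0.0666) and after cyclic loess (0.0832). Without GFP replicate 1 the difference of GSR was -1.06 (limma adjusted p = 0.00047). SLC7A11 missed the threshold without TwistER replicate 1 or 3 or GFP replicate 2 or 3 (highest limma adjusted p = 0.114), so 3 genes of the list fell in each of those fits.

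Of 18 glutathione S-transferases, MGST2, a microsomal form, fell (-0.64 ± 0.12) and GSTA4, which conjugates lipid peroxidation products, rose 2.98-fold (1.58 ± 0.16), with a median of 0.18. MGST2 missed the threshold without TwistER replicate 1 or 2 (highest limma adjusted p = 0.0649), where 0 of the list fell, and 2 rose without TwistER replicate 1. Leaving out GFP replicate 1, 5 fell and 2 rose. Of 18 genes of the thioredoxin and peroxiredoxin system, SESN3, a sestrin, rose 3.14-fold (1.65 ± 0.12), and MSRB3, a methionine sulfoxide reductase, rose 2.02-fold (1.01 ± 0.17). The peroxiredoxin PRDX2 fell (-0.66 ± 0.15), a call missed without any 1 array other than GFP replicate 1 (highest limma adjusted p = 0.118), and the median was -0.02. Without GFP replicate 1 the difference of PRDX2 was -0.82 (limma adjusted p = 0.00116). Of 12 superoxide dismutase, catalase and NADPH oxidase genes 0 changed in limma (1 lower and 1 higher at an unadjusted p under 0.05), and the largest difference was in the oxidase subunit CYBA (-0.42 ± 0.12, limma adjusted p = 0.0637, unadjusted p = 0.00646). Of these 12 genes 6 had a mean level below the 25 percentile of all genes. CYBA passed under 4 alternatives, which were a second quantile normalization (limma adjusted p = 0.0487), cyclic loess (0.0483), the filter at the 25 percentile of brightness (0.0484) and array weights (0.0231).

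A list drawn up for NADPH supply held 18 measured genes, not all of which yield NADPH themselves. ME2, the mitochondrial relative of ME1, fell 1.58-fold (-0.66 ± 0.12). ALDH1L2, a mitochondrial enzyme of folate metabolism, rose 2.31-fold (1.21 ± 0.11), and the list median was -0.13. In this list 6 genes fell without GFP replicate 1. Of 17 quinone, aldehyde and ketone detoxifying genes, ALDH3A1 was the 1 that fell (-0.50 ± 0.11) and 0 rose in limma (1 higher at an unadjusted p under 0.05), with a median of -0.20. Its call was missed without any 1 array other than GFP replicate 1 (highest limma adjusted p = 0.129), and without that array 5 fell. Of 7 export pumps, ABCG2, which exports porphyrins and drugs, was the 1 that fell (-0.53 ± 0.13), with a median of 0.07. It was missed without any 1 of the 6 arrays (highest limma adjusted p = 0.169), after median centring (0.0611) and with a trended variance (0.0501), and its mean level was above that of only 17.6% of genes.

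Of 13 genes of haem and iron handling, the iron exporter SLC40A1 rose 2.09-fold (1.06 ± 0.14), ACO1, the iron-regulated aconitase, rose (0.49 ± 0.12) and the transferrin receptor TFRC fell (-0.42 ± 0.11), with a median of -0.16. The calls of ACO1 and TFRC were missed without any 1 array other than GFP replicate 1 (highest limma adjusted p = 0.147 and 0.159), and without GFP replicate 1, 5 genes of the list fell and 3 rose. The TFRC call was also missed after a second quantile normalization (limma adjusted p = 0.0841) and after cyclic loess (0.115).

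Of 20 partners, relatives and regulators of NRF2, BACH1 was the 1 that rose and 0 fell in limma (2 lower at an unadjusted p under 0.05), with a median of 0.02. BACH1, which competes with NRF2 for antioxidant response elements and represses HMOX1, read 6.77, 6.89 and 6.68 in TwistER and 6.28, 6.10 and 6.03 in GFP. Every TwistER array was above every GFP array. BACH1 rose 1.56-fold (0.64 ± 0.12, limma adjusted p = 0.0113), and missed the threshold without TwistER replicate 1 or 2 (highest 0.0655). Of the other list members, 3 were picked for their role after their values were seen and did not pass: the NRF2 partner MAFG (-0.09 ± 0.10, limma adjusted p = 0.692), the ligase scaffold CUL3 (-0.17 ± 0.10, adjusted p = 0.381) and the KEAP1-binding autophagy receptor SQSTM1 (0.03 ± 0.20, adjusted p = 0.951). The sign of SQSTM1 turned without GFP replicate 1 (-0.20) and was not stable when other arrays were left out. In this list 1 gene fell without GFP replicate 1.

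Of 10 other genes known as NRF2 targets, 4 fell and 3 rose, with a median of -0.08. TRIM16, a ubiquitin ligase gene, fell 2.18-fold (-1.12 ± 0.26) and SPP1, which encodes the secreted protein osteopontin, fell 2.02-fold (-1.02 ± 0.16). RSPO3, an enhancer of Wnt signalling, rose 3.42-fold (1.78 ± 0.13), and the hydrolase gene ABHD4 rose 1.87-fold (0.90 ± 0.16). TRIM16 read 7.33 in GFP replicate 1, against 8.38 and 8.32 in the other GFP arrays, and its call was missed without any 1 other array (highest limma adjusted p = 0.119). Without GFP replicate 1 the difference of TRIM16 was -1.46 (limma adjusted p = 0.000251). ABHD4 was missed without TwistER replicate 2 or 3 (highest limma adjusted p = 0.0549). The list's remaining calls, named after their values were seen, were falls of the taurine transporter SLC6A6 (-0.85) and of HTATIP2 (-0.59) and a rise of the epoxide hydrolase EPHX2 (0.47), each missed in at least 4 of the 6 fits that leave out 1 array (highest limma adjusted p = 0.123, 0.133 and 0.125). HTATIP2 was also missed after cyclic loess (limma adjusted p = 0.056). Without GFP replicate 1 the differences were -1.1 in SLC6A6, -0.44 in HTATIP2 and 0.46 in EPHX2 (limma adjusted p = 0.000399, 0.0167 and 0.023). Between 1 and 2 genes of the list fell without any 1 array other than GFP replicate 1.

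**Figure D4:**
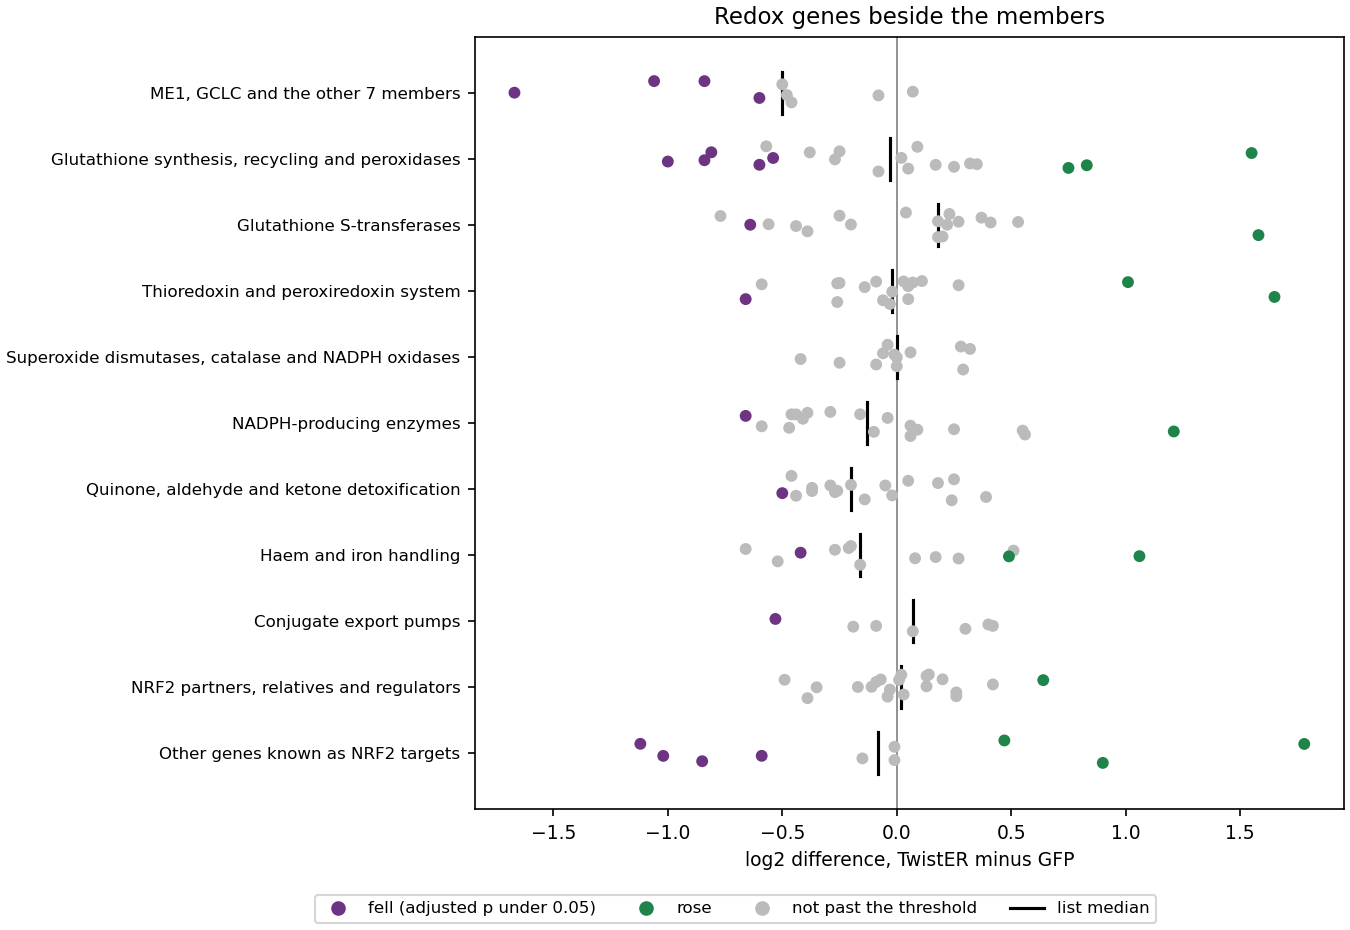
Log2 difference TwistER minus GFP (x axis) of the 9 genes (top row) and of the 153 measured genes of 10 redox lists (rows below). Points are genes, purple where they fell, green where they rose and grey where they did not pass, and black lines are list medians, at -0.50 in the top row and between -0.20 and 0.18 in the lists.

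Markers of cell identity moved with the same contrast, where 4.11% of all genes fell and 4.72% rose. Of 10 epithelial markers 8 fell and 0 rose, and their summed log2 level was 61.4 to 62.6 in TwistER and 80.3 to 86.6 in GFP. Of 6 lung epithelial markers 1 fell (27.2 to 27.6 in TwistER, 28.3 to 28.9 in GFP). Of 9 fibroblast markers 3 rose and 1 fell (43.4 to 44.3 in TwistER, 41.6 to 42.9 in GFP), of 4 endothelial markers 2 rose (19.4 to 19.5 in TwistER, 16.8 to 17.3 in GFP), and of 5 leukocyte markers 0 changed in limma (0 lower and 0 higher at an unadjusted p under 0.05; 19.5 to 20.3 in TwistER, 18.7 to 18.9 in GFP). Of the 5 leukocyte markers 3 had a mean level below the 25 percentile of all genes. Without GFP replicate 1 all 10 epithelial markers fell and 1 leukocyte marker rose, where 8.09% of all genes fell and 6.97% rose. Of the endothelial markers 1, KDR, rose without TwistER replicate 1, TwistER replicate 3 or GFP replicate 2, and of the fibroblast markers 2 rose without any 1 array other than GFP replicate 1. The part of cell identity in the differences of the 9 genes was not tested. In such bulk RNA a smaller share of cells with a transcript and less of it per cell cannot be told apart.

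The genes whose profiles over the 6 arrays were most like those of 3 members were found by Pearson correlation, as a description of arrays that fall into 2 groups. For ME1 they were FAM136A (r = 0.9997), PDSS1, a subunit of the enzyme that makes the side chain of coenzyme Q (0.9994), and HSPA4L, a heat shock protein (0.9993). For GCLC they were IARS2, the mitochondrial isoleucyl-tRNA synthetase (0.9993), GPAT3, an acyltransferase of glycerolipid synthesis (0.9982), and LRBA (0.9977). For TXNRD1 they were the galactosyltransferase B4GALT1 (0.9972), the fatty acid activating enzyme ACSL1 (0.9966) and the RNA methyltransferase NSUN2 (0.9964). These 9 genes had lower means in TwistER, a direction fixed by choosing them for likeness to members that fell. Their differences were -1.56 (ACSL1) to -0.39 (IARS2), and the call of IARS2 was missed under all 3 other scalings (limma adjusted p of 0.0521 to 0.0861). Of the 6 fits that leave out 1 array, IARS2 and B4GALT1 missed the threshold in 5 (highest limma adjusted p = 0.152 and 0.0707). NSUN2 missed it in 4 (highest 0.0607) and PDSS1 in 3 (highest 0.0751). A correlation above 0.95 was reached by 524 genes for ME1, 445 for GCLC and 309 for TXNRD1.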

How the data were processed

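Total RNA of 6 samples was turned into biotinylated cRNA for Affymetrix arrays, as the labels' protocols state. The authors deposited log2 values for each probe set. RMA is the tool that the submitters' processing notes name, with no version or settings stated in the sources at hand. As usually run, RMA equalises array distributions, so a shift of all transcripts would not show, and it compresses dim genes.

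Of 33297 probe sets, 19460 had 1 gene symbol in the platform annotation, 1754 had several and 12083 were unnamed there. The brightest probe set of each gene over all arrays was kept, which gave 18417 genes. limma 3.58.1 (under R 4.3.3, through lmFit then eBayes, 2-sided and without covariates) tested the differences, with Benjamini-Hochberg adjustment over these genes and a threshold of 0.05. Errors are SE from limma unless named SD. The labels say biological replicates and no more, so the spread behind each p-value is that between these samples and may be technical in part. The labels do not state a pairing, and the arrays were treated as unpaired. Deviations of same-numbered arrays from their group means correlated at 0.139, 0.015 and 0.157. Differently numbered arrays were not compared, so these values cannot settle whether the arrays are paired. The fit was tested on simulated data. No brightness filter was applied to the genes tested.

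Lists held 170 redox genes, 153 of them measured. Named are the 9 genes, up to 4 changed genes with the largest absolute difference per list (or the largest difference where none changed), the 3 most correlated genes of ME1, GCLC and TXNRD1, and 4 genes that check the labels. Other genes named were chosen after their values were seen, as the text says where it names them. The members and lists were chosen with earlier results of these data known. Alternatives were other normalizations, brightness filters, probe set summaries and variance models, array weights, a replicate block and each array left out. Counts per list without GFP replicate 1 were added after seeing the data. Promoter windows came from RefSeq (GRCh38.p14).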

Additional observations from a re-analysis of the deposited data

How the results depend on the processing

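Precision is limited by 3 arrays per group. ME1, GCLC and TXNRD1 fell under all 16 alternatives (differences of -1.75 to -1.51, -1.11 to -0.99 and -0.96 to -0.71), and GCLM and NFE2L2 passed under none. NQO1 was missed in 2 of the 16, both by leaving out a TwistER array, and lay at the threshold without GFP replicate 2. Its difference without 1 array was -0.65 to -0.56. Array weights brought HMOX1 (-0.50) and SRXN1 (-0.68) past the threshold and turned KEAP1 to -0.11, without a call. Without 1 array, SRXN1 ranged from -0.74 to -0.38 and KEAP1 from -0.13 to 0.17, the lowest value of each without GFP replicate 1. Members that fell numbered 3 to 5 without 1 array and 6 with array weights.

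With array weights 35 genes of the redox lists fell, and over all genes 1717 fell and 1551 rose, against 757 and 870 without weights. Without 1 array, 5 to 34 genes of the redox lists fell, and over all genes 358 to 1490 fell and 473 to 1283 rose. The highest of these counts came without GFP replicate 1. The cause of these changes was not tested. With the replicate number as a block 4 members fell (limma adjusted p = 0.0268 for NQO1), as did 16 genes of the redox lists, and over all genes 752 fell and 840 rose. Of the other genes named, ACO1 (0.0701), TFRC (0.0756), ABCG2 (0.0658), HTATIP2 (0.0544), EPHX2 (0.0547) and IARS2 (0.083) missed the threshold with the block, and no other named call changed. SQSTM1, without a call in any fit, turned to -0.13 with array weights and ranged from -0.20 to 0.17 without 1 array (-0.03 without TwistER replicate 1, -0.00 without TwistER replicate 2).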

Other observations

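Of the 18 measured genes of the list for NADPH supply, 6 fell without GFP replicate 1 (33.3%), where 8.09% of all genes fell. Not all genes of that list, nor all that fell, yield NADPH themselves. Of the 5 measured there that belong to the pentose phosphate pathway, a source of NADPH, 3 fell in that fit, and PGLS (-0.41, limma adjusted p = 0.216) and H6PD (-0.05, 0.898) did not pass. These 5 were grouped after their values were seen. PGD, which yields NADPH, read 8.64, 8.70 and 8.67 in TwistER and 8.11, 9.67 and 9.62 in GFP. GFP replicate 1 was the lowest of the 6 arrays and the other GFP arrays were the highest. With all arrays the difference of -0.46 ± 0.37 did not pass, and without GFP replicate 1 PGD fell 1.97-fold (limma adjusted p = 0.000516). The transketolase TKT and the transaldolase TALDO1 had differences of -0.39 ± 0.27 and -0.41 ± 0.21 that did not pass, and fell 1.68-fold and 1.59-fold without that array (limma adjusted p = 0.00333 and 0.0042).

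The glutathione peroxidase GPX1, also chosen after its values were seen, read 7.51, 7.33 and 7.46 in TwistER and 6.80, 8.59 and 8.61 in GFP. Its difference was -0.57 ± 0.43 with all arrays, which did not pass, and without GFP replicate 1 it fell 2.25-fold (limma adjusted p = 0.000381). GPX3 and GPX8, of the same family, rose with all arrays. The family's other genes in the list, named after their values were seen, did not pass with all arrays. They were GPX2 (0.09), GPX4 (0.02) and GPX7 (0.17).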
